A study of Mus musculus with 4 samples.

Results

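The Wnt ligands, their receptors and their secreted inhibitors were followed in adult mouse heart muscle cells after 2 days of reprogramming factor induction. The module held every gene whose symbol starts with Wnt, Fzd, Sfrp, Dkk or Rspo and a digit, together with Frzb, Wif1, Lrp5, Lrp6, Axin2, Lef1, Tcf7, Tcf7l1 and Tcf7l2, provided that at least 1 of the 4 arrays read a probe well above background. Of 50 such genes with a probe, 31 met this condition, out of 13657 genes that met it on the whole array. All animals were 10-week-old males that carried both an αMHC promoter-driven CRE allele and the tetO OSKM factors. Control animals received PBS and the others doxycycline, in each case for 2 days, and 2 samples per group were hybridised, each to a 1-colour Agilent array (Cy3). The αMHC promoter is active in heart muscle cells, so other cells of the preparation carry the same alleles without CRE expressed from it. Factor-free animals on doxycycline were not analysed here, so drug and factors cannot be told apart. The sample descriptions do not say whether the arrays came from separate animals, so p-values cover only the spread among these 4 samples, possibly a technical one.

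Wnt proteins are secreted, lipid-modified ligands that bind Frizzled receptors together with the co-receptors Lrp5 and Lrp6. In the canonical branch this stabilises beta-catenin, which acts on target genes with the nuclear factors Tcf7, Tcf7l1, Tcf7l2 and Lef1, and Axin2 is a widely used target and feedback inhibitor. In the non-canonical branches, for which Wnt5a and Wnt11 are the usual examples, Frizzled receptors act on cell polarity and calcium without beta-catenin. R-spondins strengthen the signal at the receptor, while Sfrp proteins, Frzb and Wif1 bind the ligands, and Dkk1, Dkk2 and Dkk4 block the co-receptors. In the heart the pathway takes part in early muscle differentiation, and in the adult it is mostly quiet in muscle cells and known for its activity in injured tissue.

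Levels are given as the log2 processed signal minus the 75th percentile of the array, so that 0 is the 75th percentile, and differences are doxycycline minus control on that scale with the standard error (SE) of the fit and n = 2 per group. Since probes differ in brightness, levels are compared between arrays and not between genes. The 75th percentile of the processed signal lay between 112 and 248 on the 4 arrays, and 50.6% to 51.8% of spots were well above background. Control array 1 stood apart: repeated spots of a probe varied by 10.99% there against 4.02% to 4.81% on the others. Spike-in control spots varied by 18.33% on it, against 2.94% to 6.73% on the others. Both measures were flagged as out of range by the extraction software on control array 1 alone. Across genes, which are no independent replicates, its levels correlated with the other arrays at r = 0.909 to 0.934, where the pairs without it ran from 0.941 to 0.968. All arrays lay on 1 slide, with the control arrays at neighbouring positions and the doxycycline arrays at the others, so position and treatment cannot be told apart. The number of arrays limits the precision, and a permutation test of 2 against 2 cannot give a p below 0.333. For this reason each member is also given against each control array alone.

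No member passed the test over all genes (limma with Benjamini-Hochberg adjustment), where 0 of 13657 genes (0%) were called in either direction. The smallest adjusted p among members was 0.581. An unadjusted p under 0.05 was reached by 6 members, 5 with lower and 1 with higher values after doxycycline, where 6.85% of all genes did so (4.18% lower and 2.67% higher). Of the 5 lower ones, Axin2, Rspo3 and Sfrp2 were well above background on 1 control array alone. This left 2 lower and 1 higher among the 24 members detected on all 4 arrays, against 264 lower and 245 higher among the 11308 such genes. The median difference of the members was -0.48, against -0.08 for all genes tested, and 21 of 31 lay below 0 and 10 above, where 56.0% and 44.0% of all genes did. Both doxycycline arrays lay below both control arrays for 12 of the 31 members and above both for 3, where 22.3% and 14.0% of all genes did so. Of those 12, 4 were well above background on a control array alone, and such genes could enter the module only through the group where they were high. Among the 24 members well above background on all 4 arrays, 8 lay lower without overlap and 2 higher, against 20.6% and 14.1% of the genes detected on all 4 arrays. The median of the members depended on single arrays. Against control array 2 alone it was -0.06, where that of all genes was -0.11, so the members were not lower than all genes. Against control array 1 alone it was -0.74, against -0.05 for all genes. Leaving out doxycycline array 1 gave -0.22 and leaving out doxycycline array 2 gave -0.74, with -0.08 for all genes in both cases.

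**Figure D1:**
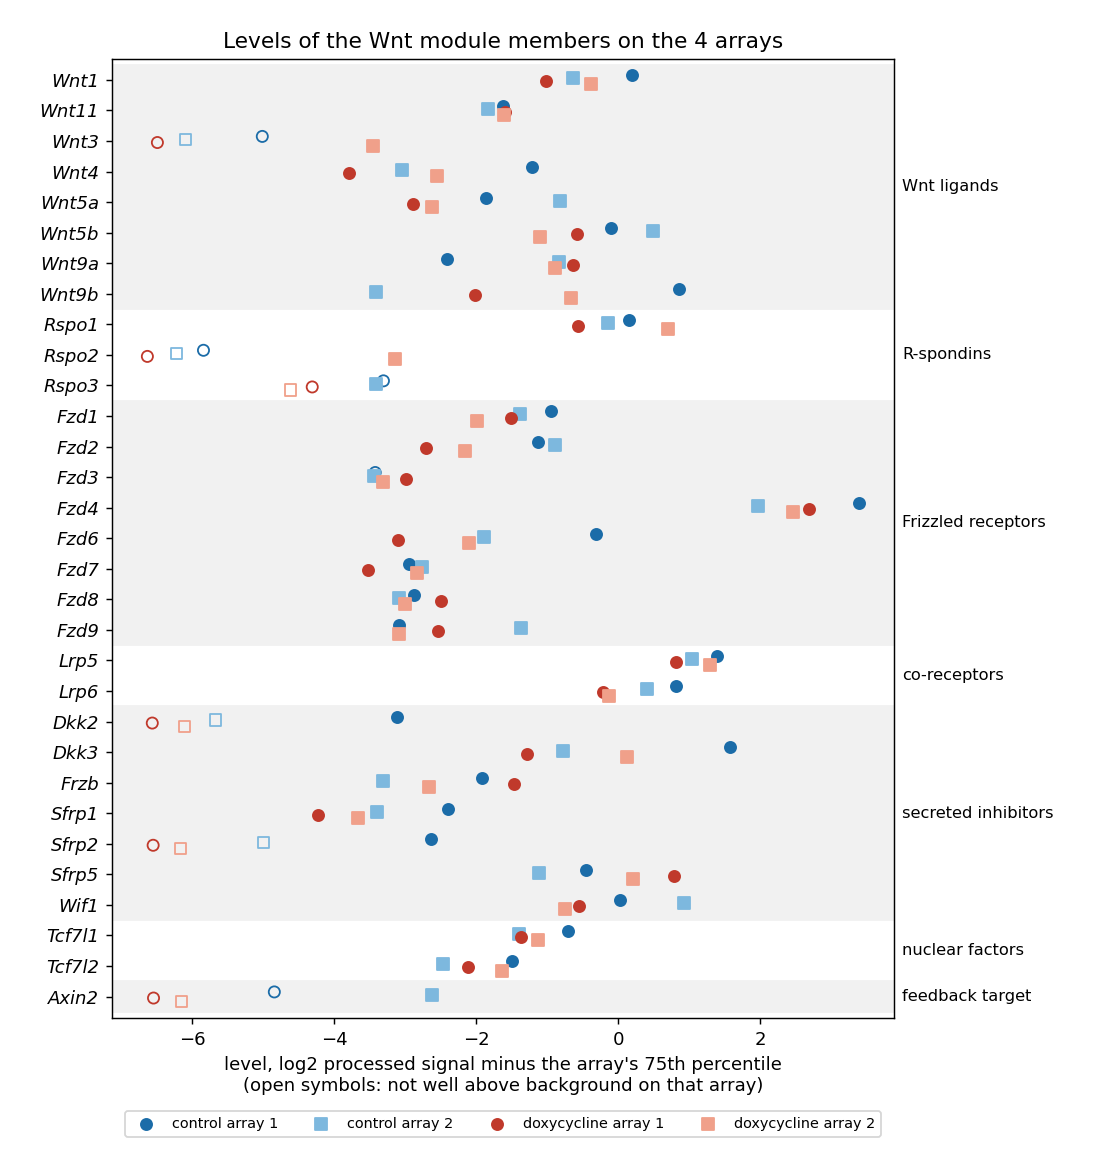
Level of each of the 31 members (rows, grouped by role) on each of the 4 arrays, as log2 processed signal minus the 75th percentile of the array; open symbols mark arrays on which the probe was not well above background. For Wnt5a, Fzd2 and Wif1 both control arrays sit to the right of both doxycycline arrays, for Sfrp5 the order is turned, and Wnt9b spans -3.42 to 0.86 within the control group.

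Among the ligands, both members of the Wnt5 pair read lower after doxycycline. Wnt5a, the best known non-canonical ligand, read -1.86 in control sample 1, -0.81 in control sample 2, -2.89 in doxycycline sample 1 and -2.63 in doxycycline sample 2, the order used for every gene. Both doxycycline arrays lay below both controls, and the difference was -1.42 ± 0.50 (SE, 2.68-fold lower, adjusted p = 0.670). Its processed signals were 30.9 and 97.2 in control and 33.5 and 31.1 after doxycycline, so the linear signals overlapped before scaling to the array. Those of Wnt5b, Rspo3, Fzd1, Lrp6 and Wif1 overlapped before scaling as well. Wnt5b, its close relative, read -0.10 and 0.49 in control and -0.58 and -1.11 after doxycycline, without overlap and with a difference of -1.04 ± 0.45 (SE, adjusted p = 0.761). For both genes control array 2 was the higher control. Against control array 2 alone the differences were therefore larger, -1.95 for Wnt5a and -1.33 for Wnt5b, and against control array 1 alone they were -0.90 and -0.74. With scaling to the median the groups of Wnt5b overlapped, at a difference of -0.69.

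Wnt11, the other classical non-canonical ligand and a regulator of heart muscle development, was nearly level. Its levels were -1.63 and -1.83 in control and -1.59 and -1.60 with the drug. The doxycycline arrays lay just above both controls, the difference was 0.13 ± 0.39 (SE, adjusted p = 0.974), and its sign turned to -0.12 with normexp background correction. Wnt9a, a ligand of the endocardial cushions, read -2.41 and -0.84 in control and -0.64 and -0.88 after doxycycline. Here control array 1 was low and control array 2 lay among the doxycycline arrays, so that the difference of 0.86 ± 0.61 (SE, adjusted p = 0.860) was 1.65 against control array 1 and 0.08 against control array 2.

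Wnt4 and Wnt9b were set apart by control array 1. Wnt4 read -1.21 and -3.04 in control and -3.80 and -2.55 after doxycycline, with overlapping groups and a difference of -1.05 ± 0.76 (SE, adjusted p = 0.863) that was -0.13 against control array 2 alone. Wnt9b, an endothelial ligand of the developing valves, read 0.86 and -3.42 in control, a gap of 4.27 that exceeded that of every other member. After doxycycline it read -2.02 and -0.66, between the controls, and its difference of -0.06 ± 1.39 (SE) became 2.08 without control array 1 and -2.20 without control array 2. Wnt1 read 0.20 and -0.64 in control and -1.01 and -0.38 after doxycycline, an overlap with a difference of -0.48 ± 0.50 (SE, adjusted p = 0.906). A second Wnt1 probe stayed near background throughout, so the probes disagree on whether the gene is detected. Second probes of Wnt4 and of Fzd7 were likewise not well above background on any array. Wnt3, next to Wnt9b on its chromosome with no protein-coding gene between, was well above background on doxycycline array 2 alone (-3.45), and no fold could be given. The other neighbouring pairs, Wnt1 with Wnt10b and Wnt9a with Wnt3a, each had 1 partner below background on every array, and Wnt6 and Wnt10a both were. Of 19 Wnt genes with a probe, 8 were detected at all: Wnt2, Wnt2b, Wnt3a, Wnt6, Wnt7a, Wnt7b, Wnt8a, Wnt8b, Wnt10a, Wnt10b and Wnt16 stayed below background on all 4 arrays.

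Of the R-spondins, Rspo1 was well above background throughout and did not separate the groups. It read 0.15 and -0.14 in control and -0.57 and 0.71 after doxycycline, and the doxycycline arrays lay on either side of both controls (difference 0.07 ± 0.55 SE, adjusted p = 0.991). Rspo3, which is known from endothelial cells, was well above background on 1 of 2 control arrays and on neither doxycycline array. It read -3.31 and -3.41 in control, and was at least 1.75-fold lower after doxycycline (adjusted p = 0.683). Such a bound sets the mean of the brighter group against, per array, the higher of the dim probe's own level and the lowest level that counted as well above background, which lay between -4.44 and -3.69. Rspo2 was detected on doxycycline array 2 alone, at -3.14, and had no fold. The fourth R-spondin, Rspo4, was below background on every array.

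The groups did not overlap for 4 of 8 Frizzled receptors, 3 lower (37.5%, against 22.3% of all genes) and 1 higher (12.5%, against 14.0%). Differences between receptors were not tested. Fzd2, a receptor that binds Wnt5a, had the smallest p of the members detected on all 4 arrays. It read -1.13 and -0.90 in control and -2.71 and -2.16 after doxycycline, with no overlap of groups. The difference was -1.42 ± 0.43 (SE, 2.68-fold lower, adjusted p = 0.588), and it hardly depended on the control, at -1.31 against control array 1 and -1.54 against control array 2. A second Fzd2 probe, dim on all 4 arrays, also read lower on both doxycycline arrays. Fzd6, a receptor of the polarity branch, read -0.32 and -1.89 in control and -3.11 and -2.10 after doxycycline, without overlap. Control array 1 was far above the other arrays, and the difference of -1.50 ± 0.68 (SE, adjusted p = 0.769) was -0.71 against control array 2 alone. Fzd1 read -0.94 and -1.38 in control and -1.51 and -1.99 after doxycycline, a small step of -0.59 ± 0.43 (SE, adjusted p = 0.863) whose groups overlapped with scaling to the median.

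Fzd4, the receptor that blood vessel cells use for Norrin and Wnt7 signals, was well above background on all arrays and read 3.39 and 1.97 in control and 2.69 and 2.46 after doxycycline. Both doxycycline arrays lay between the controls, with a difference of -0.11 ± 0.58 (SE, adjusted p = 0.988), which was 0.24 with scaling to the median and 0.07 with normexp. The endothelial markers had the same order of arrays, and their medians were 3.08 and 1.73 in control and 2.63 and 2.52 after doxycycline, and their part in the Fzd4 values was not tested. Fzd9 was high on control array 2 alone, with -3.09 and -1.37 in control and -2.54 and -3.08 after doxycycline, a difference of -0.58 ± 0.66 (SE, adjusted p = 0.914). Fzd3, Fzd7 and Fzd8 had differences of 0.29, -0.32 and 0.23, and the sign of Fzd3 and Fzd8 turned with normexp and that of Fzd7 with scaling to the median. Fzd5 and Fzd10 were below background on every array.

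Both co-receptors were well above background on every array, and the groups separated for Lrp6 alone. Lrp6 read 0.81 and 0.40 in control and -0.21 and -0.13 after doxycycline. Groups did not overlap, with a difference of -0.78 ± 0.41 (SE, 1.71-fold lower, adjusted p = 0.795). It was -0.98 against control array 1 and -0.57 against control array 2. The processed signals of Lrp6, 197 and 226 in control and 214 and 176 after doxycycline, overlapped before scaling. A second Lrp6 probe, also well above background on all arrays, differed by -0.26 in the same direction. Lrp5 read 1.40 and 1.04 in control and 0.82 and 1.29 after doxycycline, an overlap with a difference of -0.16 ± 0.43 (SE, adjusted p = 0.970) that was 0.18 with scaling to the median. Whether Lrp5 and Lrp6 differ in their response was not tested.

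**Figure D2:**
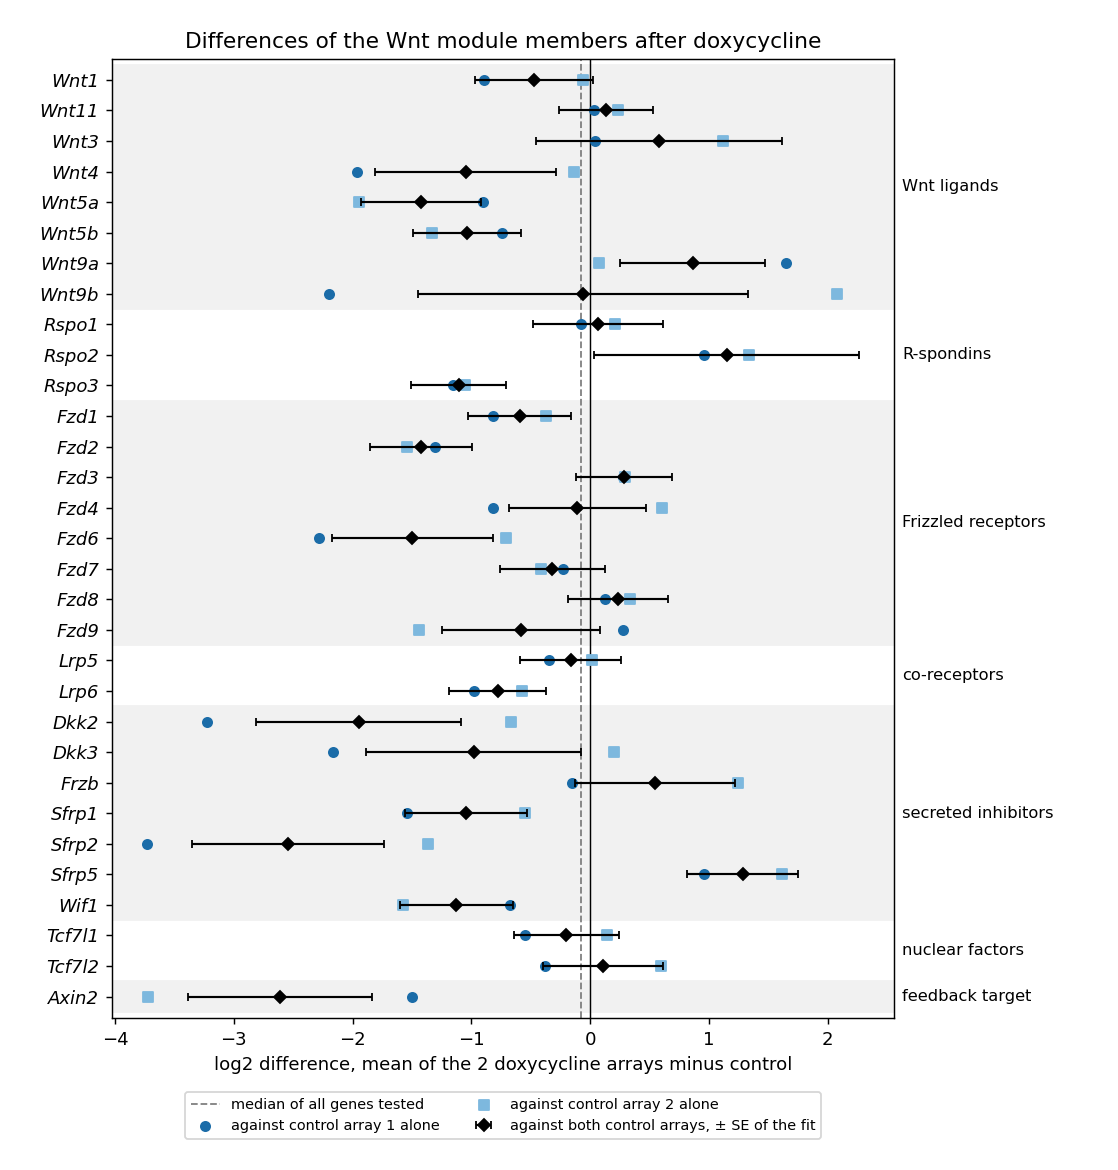
Log2 difference of each of the 31 members (rows, grouped by role), doxycycline minus control: black diamonds with bars show the fit to all 4 arrays ± SE, blue circles the mean of the doxycycline arrays minus control array 1, and light squares the same minus control array 2; the dashed line is the median of all genes tested (-0.08). Fzd2, Rspo3, Lrp6, Wif1, Wnt5a and Wnt5b are among the members below 0 against either control, and Sfrp5 is among those above 0. Wnt9b, Dkk3, Fzd4 and Fzd9 are among those that change sign with the control.

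Of the secreted inhibitors, Wif1 and Sfrp5 differed in opposite directions, and both ligand-binding proteins were well above background on all arrays. Wif1 read 0.03 and 0.93 in control and -0.55 and -0.75 after doxycycline, below both controls, with a difference of -1.13 ± 0.48 (SE, 2.18-fold lower, adjusted p = 0.748). Sfrp5, known as an antagonist of Wnt5a, read -0.45 and -1.11 in control and 0.79 and 0.21 after doxycycline. Both doxycycline arrays exceeded both controls, by 1.28 ± 0.47 (SE, 2.43-fold higher, adjusted p = 0.692), and no other member had an unadjusted p under 0.05 with a higher value. The direction of Sfrp5 held with normexp (0.99), quantile normalization (1.28) and scaling to the median (1.63), and that of Wif1 likewise (-0.80, -1.11 and -0.78), although with the last the Wif1 groups overlapped. Against control array 1 and control array 2 alone Sfrp5 differed by 0.95 and 1.61, and Wif1 by -0.67 and -1.58.

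The start regions of these opposing inhibitors and of Axin2 are shown because they are the sequences in which a TCF site close to the start would lie. They are RefSeq windows of build GRCm38.p6, given 5′ to 3′ on the strand of the gene, with 250 bases before the start in lower case and 50 bases from the start on in capitals.
Wif1, chr10:121033754-121034053, plus strand: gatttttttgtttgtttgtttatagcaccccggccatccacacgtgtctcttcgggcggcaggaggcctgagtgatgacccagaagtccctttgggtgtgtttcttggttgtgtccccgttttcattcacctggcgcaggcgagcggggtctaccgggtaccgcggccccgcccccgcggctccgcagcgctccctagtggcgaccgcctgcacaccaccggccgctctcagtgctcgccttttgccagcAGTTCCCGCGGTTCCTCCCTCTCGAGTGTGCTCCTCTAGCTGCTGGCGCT
Sfrp5, chr19:42202203-42202502, minus strand: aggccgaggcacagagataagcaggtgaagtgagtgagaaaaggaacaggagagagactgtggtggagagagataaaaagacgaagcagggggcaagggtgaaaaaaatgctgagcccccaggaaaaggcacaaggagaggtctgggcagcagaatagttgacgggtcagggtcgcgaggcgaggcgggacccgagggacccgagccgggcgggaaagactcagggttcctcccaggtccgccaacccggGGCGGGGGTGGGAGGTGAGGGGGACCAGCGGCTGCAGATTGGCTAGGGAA
Axin2, chr11:108920099-108920398, plus strand: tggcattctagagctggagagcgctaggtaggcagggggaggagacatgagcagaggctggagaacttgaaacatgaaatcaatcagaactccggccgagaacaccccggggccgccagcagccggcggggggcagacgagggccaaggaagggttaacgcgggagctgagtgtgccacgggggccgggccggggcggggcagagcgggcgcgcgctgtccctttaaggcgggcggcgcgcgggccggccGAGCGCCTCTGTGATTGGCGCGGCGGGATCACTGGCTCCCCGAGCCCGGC
None of the 3 windows held the TCF/LEF core searched, which was CTTTGAA or CTTTGAT or CTTTGTA or CTTTGTT on either strand. Of 31 members, 20 had a window in the table, and 5 of their 24 windows held the core (20.8%), against 16.9% of all 32851 windows of this length. These 5 windows belonged to Fzd7, Tcf7l2, Wnt11, Wnt3 and Wnt5b. A match is a run of letters and not a shown binding site, and a missing match says only that the letters are not in the window. Of the sequences shown, Axin2 was the richest in G and C at 70.0%, with 63.0% for Wif1 and 61.3% for Sfrp5, where the median over all windows was 52.7%.

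Most of the remaining inhibitors were highest on control array 1. Dkk3, a secreted protein of the Dickkopf family with no clear block of the co-receptors, read 1.58 and -0.78 in control and -1.28 and 0.12 after doxycycline. Its groups overlapped, and the difference of -0.98 ± 0.90 (SE, adjusted p = 0.885) was -2.16 against control array 1 and 0.20 against control array 2. Sfrp1 read -2.40 and -3.40 in control and -4.22 and -3.66 after doxycycline, without overlap (-1.05 ± 0.52 SE, adjusted p = 0.787), and was -0.55 against control array 2 alone. Sfrp2, a fibroblast-derived Wnt binding protein, was well above background on control array 1 alone, at -2.63. The bound of at least 1.33-fold lower after doxycycline (adjusted p = 0.634) rested on that array, since control array 2 (-5.00) read below the lowest levels that counted as well above background on the doxycycline arrays. Dkk2 was likewise detected on control array 1 alone, at -3.12, and had no fold. Frzb, also called Sfrp3, read -1.92 and -3.31 in control and -1.46 and -2.67 after doxycycline, with overlapping groups and a difference of 0.55 ± 0.67 (SE, adjusted p = 0.928). Dkk1, Dkk4 and Sfrp4 were below background on all arrays.

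Markers of other cell types also differed between the arrays. The median level of 10 fibroblast markers was 1.99 and 0.57 in control and -1.45 and -1.06 after doxycycline, and 9 of 10 lay below control with a median difference of -2.31, or -1.39 against control array 2 alone. Their summed linear level did not separate the groups and ranged from 68.8 to 221 in control and from 80.6 to 86.4 after doxycycline. Control array 1 had the highest median for endothelial, endocardial, smooth muscle and pericyte, macrophage, T cell, red cell and Schwann cell markers too, though not for epicardial markers, and the lowest for heart muscle markers (5.67, against 7.09 to 7.37 on the others). All 8 heart muscle markers were well above background on every array. Their summed levels were 2581 and 2606 in control and 1794 and 2417 after doxycycline, so by this measure control array 1 was not the lowest. Summed levels in control and after doxycycline ranged from 202 to 637 and 217 to 273 for endothelial markers, from 66.2 to 77.5 and 25.3 to 33.2 for smooth muscle and pericyte markers, and from 7.63 to 21.2 and 5.74 to 6.42 for macrophage markers. Below background on every array were Cd163 among macrophage markers and Cd3d, Cd3g and Cd8a among T cell markers. In such bulk samples fewer cells of a type and less RNA per cell cannot be told apart, and the part of these cells in the values of Sfrp1, Sfrp2, Dkk2, Dkk3, Wnt4, Fzd6 and Wnt9b was not tested.

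**Figure D3:**
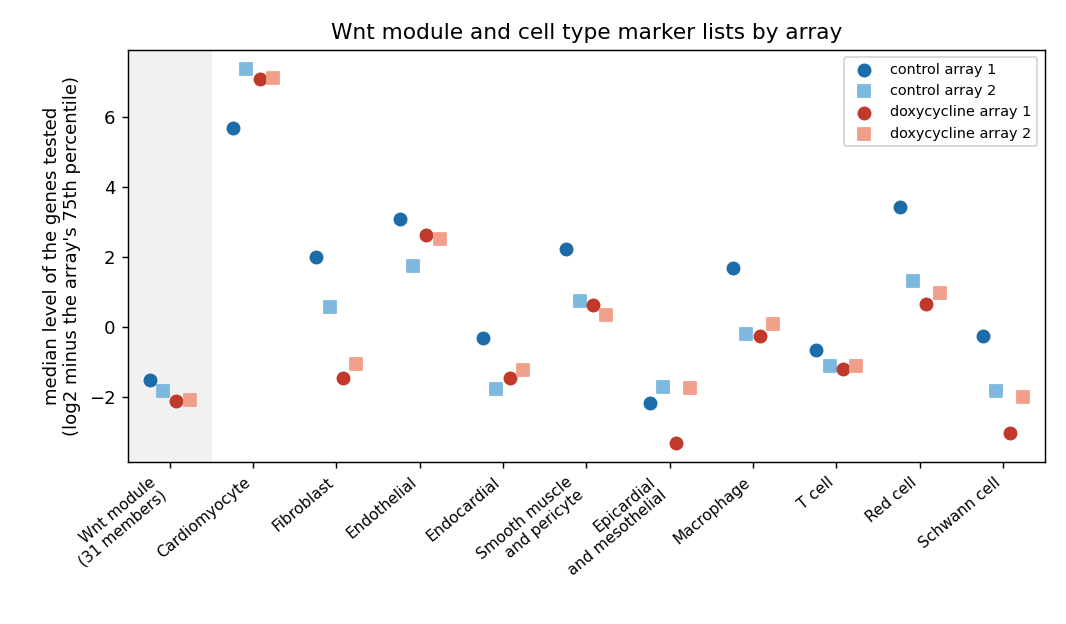
Median level of the 31 Wnt module members and of the tested genes of 10 cell type marker lists on the 4 arrays, in log2 processed signal minus the 75th percentile of the array. Fibroblast marker medians are 1.99 and 0.57 in control and -1.45 and -1.06 after doxycycline, and the module medians lie between -1.50 and -2.12.

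The nuclear factors that were detected did not separate the groups. Tcf7l1, mostly a repressor of Wnt targets, read -0.71 and -1.40 in control and -1.37 and -1.13 after doxycycline (difference -0.20 ± 0.44 SE, adjusted p = 0.965). Tcf7l2, its more activating relative, read -1.50 and -2.47 in control and -2.12 and -1.64 after doxycycline (difference 0.11 ± 0.50 SE, adjusted p = 0.985). For both genes the doxycycline arrays lay between the controls, and the 2 other probes of Tcf7l2 differed by -0.23 and -0.07. Lef1 and Tcf7 were below background on every array. Axin2, the feedback target, was near the edge of detection: it was well above background on control array 2 alone, at -2.63, with a processed signal of 27.7 there, and not on control array 1 (-4.85) or either doxycycline array. The bound of at least 1.41-fold lower after doxycycline (adjusted p = 0.581) rested on control array 2, since control array 1 read below the lowest levels that counted as well above background on the doxycycline arrays, and a second Axin2 probe was not well above background anywhere.

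Of 127 further genes of the pathway with a probe, 103 were tested, and 0 passed over all genes in either direction (smallest adjusted p = 0.515). Their median difference was -0.31, 71 lay below 0, and the groups did not overlap for 39 lower (37.9%) and 8 higher genes (7.77%). Over all genes, with which each list below is to be read, 56.0% lay below 0, 22.3% were lower and 14.0% higher without overlap, and the median was -0.08. In the planar polarity and calcium branch, which acts downstream of non-canonical ligands, 20 of 23 genes lay below 0, 11 were lower without overlap (47.8%, against 22.3% of all genes) and 0 higher (against 14.0%). The median there was -0.55, and it was -0.46 against control array 2 alone and -0.53 against control array 1 alone. Celsr2, an atypical cadherin of cell polarity, read -2.42 and -2.88 in control and -4.28 and -3.86 after doxycycline (-1.42 ± 0.43 SE, adjusted p = 0.590), and it was not well above background on doxycycline array 1. Its relative Celsr1 differed by -1.14 ± 0.55, the calcium-regulated transcription factor Nfatc2 by -0.80 ± 0.41 and the polarity effector Intu by -1.23 ± 0.64, each without overlap. With the mean of a gene's probes the difference was smaller for Celsr2 (-0.84), Intu (-0.76) and Nfatc2 (-0.72), and unchanged for Celsr1.

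In the beta-catenin destruction complex and signalosome, 20 of 27 genes lay below 0 (74.1%, against 56.0% of all genes), and 12 were lower (44.4%, against 22.3%) and 2 higher (7.41%, against 14.0%) without overlap (median -0.23). Dact3, an inhibitor of Wnt signalling that binds Dishevelled, read -0.33 and 0.20 in control and -1.55 and -1.87 after doxycycline. Its groups did not overlap, and the difference was -1.64 ± 0.43 (SE, 3.12-fold lower, adjusted p = 0.533). Dact1, of the same family, differed by -1.11 ± 0.43, the Apc relative Apc2 by -1.30 ± 0.46 and the Dishevelled gene Dvl2 by -0.80 ± 0.40. Beta-catenin itself, Ctnnb1, read 2.92 and 2.45 in control and 1.83 and 2.30 after doxycycline, a difference of -0.62 ± 0.44 (SE, adjusted p = 0.858). Ctnnb1 was added after its values were seen. It is counted above among the genes of this list that were lower without overlap, and likewise among all further pathway genes.

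Of 10 receptor partners tested, with a median of -0.24, 2 were lower and 1 higher without overlap, near the shares of all genes (22.3% and 14.0%). Tspan12, the tetraspanin that assists Fzd4 in Norrin signalling, read 2.02 and 1.73 in control and 0.39 and 0.78 after doxycycline (-1.29 ± 0.41 SE, adjusted p = 0.634). Fzd4 itself, as above, lay between the controls. Kremen1, a receptor of the Dickkopf proteins, read 1.37 and 2.53 in control and 3.19 and 2.72 after doxycycline, above both controls, by 0.42 against control array 2 alone (adjusted p = 0.780 in that fit). Ryk, a Wnt co-receptor, differed by -0.36 ± 0.39, and Kremen2 was detected on control array 1 alone.

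Secretion and extracellular modulators (9 tested) had a median of -0.31, with 3 lower (33.3%, against 22.3% of all genes) and 1 higher (11.1%, against 14.0%) without overlap. The matricellular protein gene Tinagl1 differed by 1.07 ± 0.61, Gpc6 and Gpc3, 2 glypicans, by -1.12 ± 0.59 and 0.68 ± 0.50, and Trabd2b, a protease that inactivates Wnt ligands, by 1.32 ± 0.81. The groups of Trabd2b overlapped, and its difference was 0.15 against control array 2 alone and 2.49 against control array 1 alone. For Tinagl1 the difference was 1.81 against control array 2 alone and 0.33 against control array 1 alone. Nuclear coactivators and corepressors (17 tested) had a median of -0.13, near that of all genes (-0.08), with 6 lower (35.3%, against 22.3%) and 2 higher (11.8%, against 14.0%) without overlap. Their genes of smallest p were Cby1 (-0.85 ± 0.45), Tle2 (-0.93 ± 0.51) and Ctnnbip1 (-0.70 ± 0.41), all of which restrain beta-catenin or TCF, and Ep300, which was high on doxycycline array 1 alone (0.89, against -2.95 to -2.66 on the others).

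Of 21 tested genes that are known as targets of beta-catenin and TCF in other tissues, 13 lay below 0 (61.9%), 6 were lower (28.6%) and 2 higher (9.52%) without overlap (median -0.15), near the shares of all genes (56.0%, 22.3% and 14.0%). Ccnd1, cyclin D1, read 3.08 and 1.88 in control and 0.68 and 0.85 after doxycycline (-1.72 ± 0.53 SE, 3.29-fold lower, adjusted p = 0.605). Ccn5, a matricellular protein, was well above background on both control arrays and neither doxycycline array. Its bound of at least 4.03-fold lower (adjusted p = 0.615) rested on control array 1: the measured difference was -1.41 against control array 2 alone, and -0.78 with normexp. Against control array 2 alone Ccnd1 differed by -1.12. Snai2 differed by -1.58 ± 0.71 (-0.70 against control array 2 alone). Like Ccnd1, both Snai2 and Ccn5 were highest on control array 1, as the medians of fibroblast and several other marker lists were. The part of these cell types in the values was not tested. Myc read -2.34 and -3.21 in control and 1.77 and -0.49 after doxycycline (3.41 ± 0.81 SE, adjusted p = 0.515). Myc is one of the introduced factors, and the probe may read the introduced copy, so its level is no reading of the pathway.

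**Figure D4:**
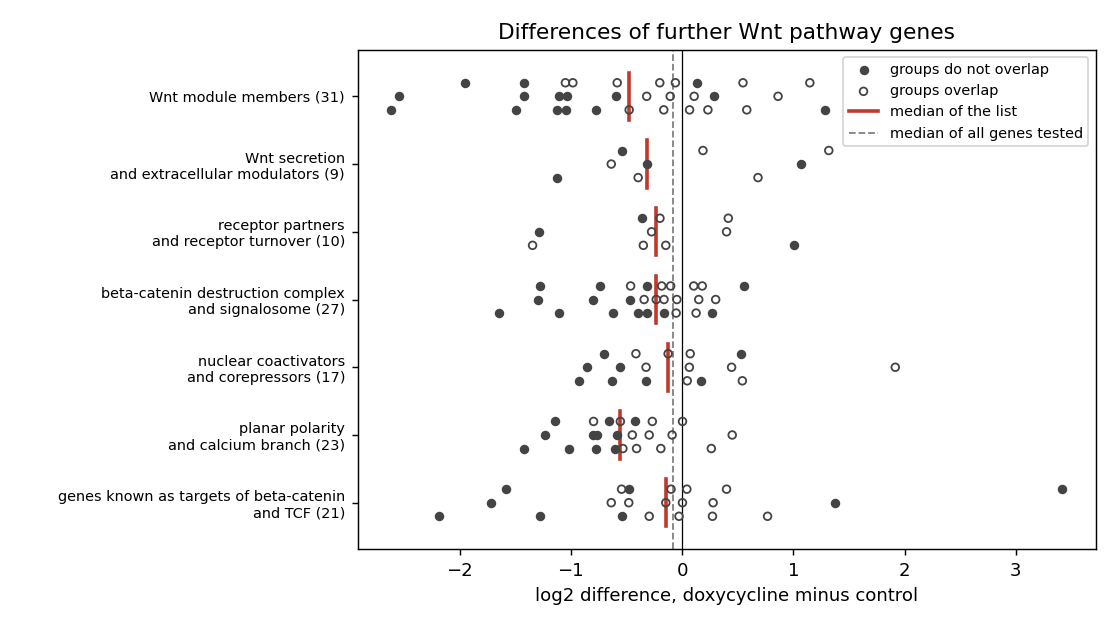
Log2 difference, doxycycline minus control, of the 31 Wnt module members and of the tested genes of 6 further pathway lists (each point is a gene, filled where the 2 groups of arrays do not overlap; red bars are list medians and the dashed line the median of all genes tested, -0.08). List medians lie between -0.55 for planar polarity and calcium genes and -0.13 for nuclear cofactors, and the point at 3.41 is Myc.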

How the data were processed

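Adult heart muscle cell RNA was measured on 4 Agilent arrays, grouped by sample title. Per the file headers, the authors extracted the deposited intensity values from 1-colour Cy3 scans (Feature Extraction 10.7.1.1). The processed intensity is background-subtracted and detrended within each array, and the 75th percentiles differ between arrays. Flags of 0 or 1 per spot were used as given. Further steps are not given in the sources used here. Probes (39429) were named through unversioned RefSeq accessions in a table of assembly GRCm38.p6, used for names and gene order; 27508 matched, for 20886 genes. The design build of the array is mm9, and no probe coordinates are given.

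The log2 processed signal minus the 75th percentile of non-control spots was averaged over unflagged spots. A probe with several spots counted as well above background if at least 0.5 of them did. The brightest such probe stood for a gene, and 35 probes were left out because an array had no unflagged spot of them. A two-sided limma test (version 3.58.1, under R 4.3.3) was adjusted over 13657 genes by Benjamini-Hochberg at 0.05 (3.68 prior and 2 residual degrees of freedom), after the steps were tested on simulated data. Lists are described by counts and medians, with no test. Named are all members and the genes of smallest p in each further list, up to 4, with Ctnnb1 added after its values were seen. Alternatives were normexp (offset 50, on median spot signals), quantile and median scaling, other filters, probe means, trended or robust variances, blocking on replicate number, leaving out each array, and calls by an unadjusted p under 0.05 where the log2 difference reached 1 in size. Members and lists were chosen with earlier results of these data known. Figures were drawn with matplotlib 3.10.9.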

Additional observations from a re-analysis of the deposited data

How the results depend on the processing

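No member passed at an adjusted p under 0.05 under any alternative fit, and 6 members met the unadjusted rule. Over all genes, higher and lower calls numbered 6 and 0 with normexp, 14 and 3 with scaling to the median, and 364 and 569 by the unadjusted rule. Without doxycycline array 2 there were 43 and 19, and without each other array 0 and 0 (935 genes had an unadjusted p under 0.05 with all arrays). Across genes, same-numbered samples did not deviate from their group means together (correlation -0.070), which cannot show whether the samples were paired. The replicate block gave 27 higher and 25 lower calls. It changed no member's call, and Myc passed with it (3.41). Without doxycycline array 2 the difference of Myc was 4.54. Scaling to the median moved the median of all genes from -0.08 to 0.27 and that of the members to -0.13, and the leave-one-out medians of the members ran from -0.74 to -0.059. Members lower without overlap numbered 12 to 20 when an array was left out (20 without control array 2 and without doxycycline array 2, where 43.7% and 37.8% of all genes were lower). Without control array 1 there were 14 of 31, near the 44.5% of all genes, and without doxycycline array 1 there were 12 (31.7% of all genes). Members higher numbered 9 without control array 1 and 5 without control array 2, where 27.8% and 39.0% of all genes were higher. They numbered 6 without doxycycline array 1 and 6 without doxycycline array 2, against 21.2% and 26.9% of all genes. With normexp 16 members were lower and 1 higher (34.2% and 12.8% of all genes) and 26 lay below 0. With quantile normalization 12 were lower and 5 higher (20.2% and 16.2%). With scaling to the median 9 were lower and 7 higher (10.3% and 23.8%) and 16 lay below 0. The cause was not tested, except that fewer arrays overlap less by construction.

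Of 807 values of single genes under the alternatives, 32 changed sign, and the cause was not tested. With normexp these were Fzd3 (-0.26), Fzd4 (0.066), Fzd8 (-0.28), Rspo2 (-0.30), Tcf7l2 (-0.11), Wnt11 (-0.12) and Wnt3 (-0.39). With scaling to the median they were Fzd4 (0.24), Fzd7 (0.029), Lrp5 (0.18), Tcf7l1 (0.15) and Wnt9b (0.29), and with the mean of a gene's probes Tcf7l2 (-0.063). Leaving out 1 array gave ranges of -2.16 to 0.20 for Dkk3, -0.15 to 1.25 for Frzb, -0.82 to 0.61 for Fzd4, -0.66 to 0.024 for Fzd7, -0.022 to 0.49 for Fzd8, -1.44 to 0.28 for Fzd9, -0.40 to 0.072 for Lrp5, -0.57 to 0.70 for Rspo1, -0.60 to 2.89 for Rspo2, -0.55 to 0.15 for Tcf7l1, -0.38 to 0.59 for Tcf7l2, -0.94 to 2.10 for Wnt3 and -2.20 to 2.08 for Wnt9b. Signal near background limits Axin2, Dkk2, Rspo2, Rspo3, Sfrp2 and Wnt3, each well above background on 1 array.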
